A study of Homo sapiens with 6 samples.

Results

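The genes described here are 10 components and regulators of the WNT pathway: DKK1, DKK3, KREMEN1, KREMEN2, LRP5, LRP6, AXIN2, CTNNB1, TBL1X and TBL1XR1. They were picked by symbol from the 60564 genes of the table of raw counts, and each of the 10 symbols matched 1 row. DKK1 and TBL1X were picked because earlier results of the same comparison placed them among its largest changes, so the values of all 10 are given as a description. Where calls on them are counted, nothing is read from the count. The study asks how CNTNAP2-203, a transcript of the gene CNTNAP2, acts on the growth of oral squamous carcinoma cells. RNA was sequenced from CAL27, an established human cell line of a squamous carcinoma of the tongue, in 2 groups of 3 libraries. The control group carried a lentiviral control vector, is labelled WT, and is named EGFP in its sample descriptions. The other group, labelled CNTNAP2-203 OE, carried a lentivirus with CNTNAP2-203 (OE stands for overexpression). Both groups were infected lines selected with 5 μg/ml puromycin for 2 weeks, and the sources used here do not say whether a line was a pool of infected cells or 1 clone.

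In canonical WNT signalling, a WNT ligand binds a Frizzled receptor together with the co-receptors LRP5 or LRP6. This stops a cytoplasmic destruction complex, built on axin and APC, from marking β-catenin for degradation, and β-catenin then drives transcription with factors of the TCF/LEF family. DKK1 is a secreted antagonist that binds LRP5 and LRP6, and the KREMEN proteins are its membrane receptors. TBL1X and TBL1XR1 are closely related WD-repeat subunits of a corepressor complex with NCOR1 that also bind β-catenin. AXIN2 is a widely used readout of the pathway because β-catenin induces it as negative feedback. In squamous carcinoma, WNT signalling is studied for its part in growth and in the state of basal cells.

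Library totals were 36843190 to 42412703 counts. CNTNAP2 itself had 0, 3 and 4 counts in the control libraries and 119280 to 156055 in the CNTNAP2-203 OE libraries. All 12 squamous epithelial markers examined had a mean of at least 1 FPKM (fragments per kilobase and 1e6 reads), with a summed level of 4377 to 4899 FPKM in the controls and 4187 to 4905 in CNTNAP2-203 OE. Of 9 fibroblast, 8 leukocyte and 6 endothelial markers, 2 (COL1A1 and LUM), 2 (CD14 and CD68) and 0 reached that level, and THY1, MS4A1 and KDR had no count in any library. The summed levels of these 3 lists overlapped between the groups, at 5.37 to 6.03, 22.3 to 30.5 and 0.820 to 1.31 FPKM in the controls and 5.76 to 5.997, 23.3 to 26.8 and 1.09 to 1.67 FPKM in CNTNAP2-203 OE. The smallest library, CNTNAP2-203 OE replicate 3, also showed the smallest number of genes with a count (25336, against 26418 to 27002 in the others). The labels of control replicate 1 say that its file of reverse reads was missing, and the part this plays in its values was not tested.

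The sequences before the starts of DKK1 and TBL1X are shown first, since these were the genes that lay farthest apart between the groups. They are the 250 bases upstream of the RefSeq start (GRCh38.p14), on the plus strand: chr10:52314031-52314280 for DKK1, and chrX:9463045-9463294 and chrX:9464808-9465057 for the 2 TBL1X starts in the table. Capitals mark matches to a TCF/LEF motif (CTTTGAT or CTTTGAA) or to TATAAA, each searched on both strands.
DKK1: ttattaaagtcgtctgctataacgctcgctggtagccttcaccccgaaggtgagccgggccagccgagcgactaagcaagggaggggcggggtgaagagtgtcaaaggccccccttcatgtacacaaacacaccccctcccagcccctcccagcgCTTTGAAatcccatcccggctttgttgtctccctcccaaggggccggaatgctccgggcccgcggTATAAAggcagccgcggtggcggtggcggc
TBL1X, first start: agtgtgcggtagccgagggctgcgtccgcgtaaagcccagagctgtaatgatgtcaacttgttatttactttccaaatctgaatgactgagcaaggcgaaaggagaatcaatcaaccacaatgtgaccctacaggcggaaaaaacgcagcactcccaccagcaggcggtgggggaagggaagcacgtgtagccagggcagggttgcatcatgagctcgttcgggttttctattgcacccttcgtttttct
TBL1X, second start: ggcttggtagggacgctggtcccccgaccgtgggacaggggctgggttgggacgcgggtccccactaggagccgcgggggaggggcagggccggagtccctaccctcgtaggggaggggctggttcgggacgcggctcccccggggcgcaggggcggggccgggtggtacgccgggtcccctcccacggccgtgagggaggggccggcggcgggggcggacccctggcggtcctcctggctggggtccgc
The DKK1 sequence held CTTTGAA on the plus strand, from 95 to 89 bases before the start, and TATAAA from 30 to 25 bases before it. Neither TBL1X sequence held any of these letters. A TCF/LEF match was present in 5.94% and TATAAA in 10.7% of the 35116 sequences of the same length in the table. None of these 3 sequences, nor those of LRP5, CTNNB1 and TBL1XR1, held any of 4 E2F motifs (TTTCCCGC, TTTGGCGC, TTTCGCGC and TTTGCCGC), which 2.79% of all the sequences held. E2F was included because the series' title names E2F1. The G and C content was 62.8% for DKK1, 52.0% for the first and 79.2% for the second TBL1X start, beside a median of 58.0%. The table gave sequences for 5 of the 10 genes. A match is a description of letters, and these data do not bear on binding.

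DKK1 was higher in every CNTNAP2-203 OE library than in any control. Its raw counts were 1421, 1377 and 1453 in control replicates 1, 2 and 3 and 3738, 3830 and 3655 in CNTNAP2-203 OE replicates 1, 2 and 3. After scaling for library size and composition (TMM-scaled CPM, counts per 1e6) it was at 35.8, 34.9 and 34.4 in the controls and at 88.3, 92.7 and 104 in CNTNAP2-203 OE. The lowest overexpressing library thus lay far above the highest control, and the 3 controls differed by a factor of only 1.04. The group means were 35.0 ± 0.728 and 95.1 ± 8.36 CPM (SD, n = 3 each), a ratio of 2.72 and a fitted log2 fold change of 1.44 (SE 0.102). DKK1 (ENSG00000107984) lies at chr10:52314296-52318042 on the plus strand in GENCODE 29 (GRCh38). PRKG1-AS1, on the minus strand, overlaps its start. The library kit does not mark strand, and PRKG1-AS1 itself had 36 to 60 counts.

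DKK3, a related secreted protein that is not a typical antagonist of LRP5 and LRP6, was at 59.7, 154 and 143 CPM in control replicates 1, 2 and 3. It was at 179, 169 and 195 CPM in CNTNAP2-203 OE replicates 1, 2 and 3. The groups did not overlap, but control replicate 1 stood far below the other 5 libraries. The fitted log2 fold change was 0.61 (SE 0.343) with all libraries and 0.29 without control replicate 1. The controls differed by a factor of 2.58 for DKK3, while for DKK1 they were close together. Within a library, the per-length level of DKK1 was 3.24, 1.22 and 1.30 times that of DKK3 in the 3 controls and 2.65, 2.95 and 2.88 times in CNTNAP2-203 OE. Control replicate 1 thus lay above the CNTNAP2-203 OE libraries in this ratio, and the other controls below them.

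TBL1X went the other way from DKK1. Its raw counts were 959, 962 and 1050 in control replicates 1, 2 and 3 and 434, 416 and 286 in CNTNAP2-203 OE replicates 1, 2 and 3. On the CPM scale it was at 24.2, 24.4 and 24.9 in the controls and at 10.2, 10.1 and 8.17 in CNTNAP2-203 OE. All 3 overexpressing libraries lay below all 3 controls, and CNTNAP2-203 OE replicate 3 was the lowest. The means were 24.5 ± 0.348 and 9.50 ± 1.15 CPM (SD, n = 3 each), with the control mean 2.58 times the other and a fitted log2 fold change of -1.36 (SE 0.133). TBL1X (ENSG00000101849) lies at chrX:9463295-9741037 on the plus strand. Its 3′ end overlaps GPR143 on the minus strand, which had 0 to 5 counts.

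TBL1XR1, the autosomal relative of TBL1X, was at 211, 193 and 241 CPM in the controls and at 264, 197 and 229 CPM in CNTNAP2-203 OE. These values overlapped, with a log2 fold change of 0.10 (SE 0.137). The ratio of TBL1X to TBL1XR1 per length was 0.147, 0.162 and 0.132 in control replicates 1, 2 and 3 and 0.0499, 0.0659 and 0.0457 in CNTNAP2-203 OE replicates 1, 2 and 3. TBL1X was therefore the minor of these paralogs in all 6 libraries, and its share was smaller in each CNTNAP2-203 OE library than in any control. TBL1XR1 (ENSG00000177565) lies at chr3:177019340-177228000 on the minus strand.

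**Figure D1:**
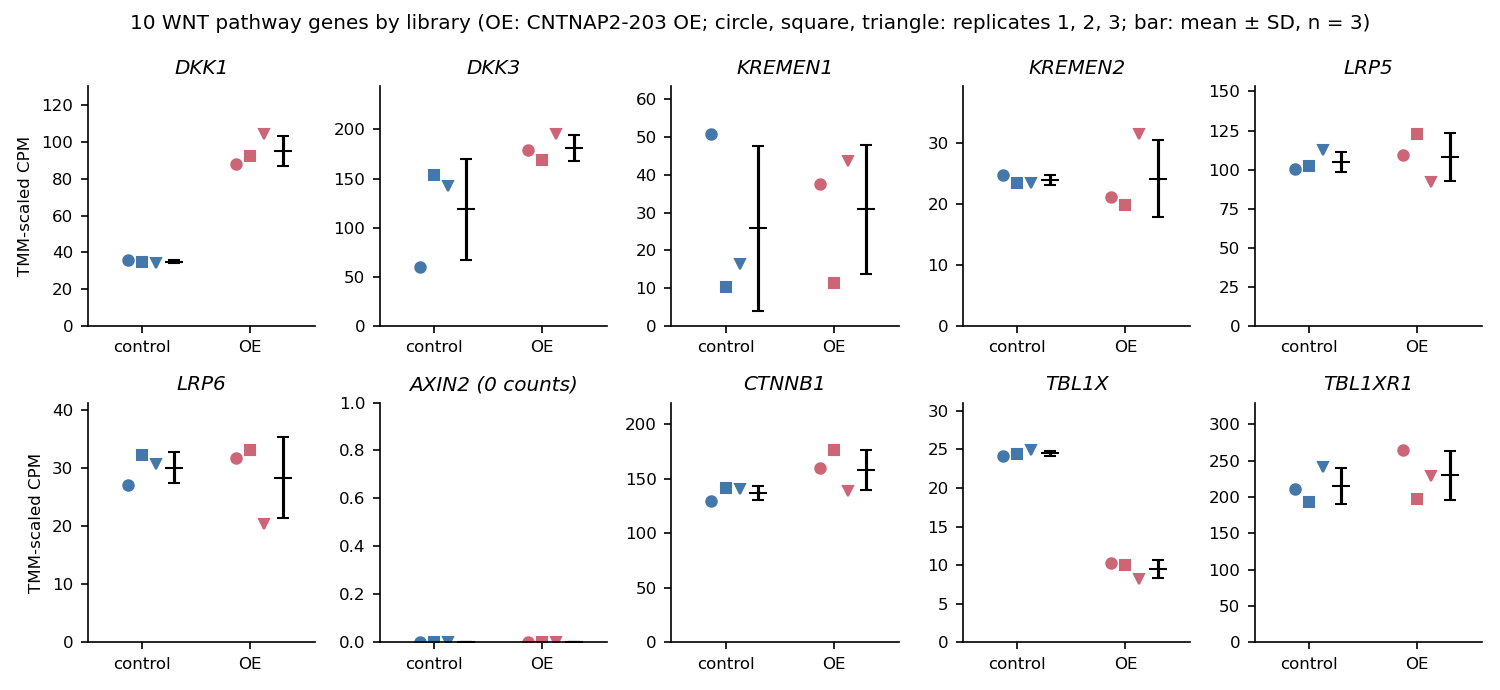
TMM-scaled CPM (y axis, from 0) of the 10 WNT pathway genes in each control and CNTNAP2-203 OE (OE) library; circles, squares and triangles are replicates 1, 2 and 3, and bars show mean ± SD (n = 3). DKK1 lies at 34.4 to 35.8 CPM in the controls and 88.3 to 104 in CNTNAP2-203 OE, TBL1X at 24.2 to 24.9 and 8.17 to 10.2, KREMEN1 varies within both groups, and AXIN2 is at 0.

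LRP5 and LRP6, the co-receptors that DKK1 binds, had overlapping groups. LRP5 was at 100.2, 103 and 112 CPM in the controls and at 109, 122.8 and 92.0 CPM in CNTNAP2-203 OE, with a log2 fold change of 0.04 (SE 0.124). LRP6 was at 27.1, 32.3 and 30.8 CPM in the controls and at 31.7, 33.1 and 20.4 CPM in CNTNAP2-203 OE, with a log2 fold change of -0.08 (SE 0.188). CNTNAP2-203 OE replicate 3 was the lowest of the 6 libraries for both genes. Without that library the log2 fold change of LRP6 was 0.10, with the opposite sign. Per length, LRP6 was at 0.132 to 0.187 times LRP5 in the 6 libraries. LRP5 (ENSG00000162337) lies at chr11:68312609-68449275 on the plus strand. LRP6 (ENSG00000070018) lies at chr12:12116025-12267012 on the minus strand and overlaps BCL2L14, which had 74 to 146 counts.

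KREMEN1 varied more between replicates than between groups. It was at 50.8, 10.4 and 16.3 CPM in control replicates 1, 2 and 3 and at 37.6, 11.4 and 43.6 CPM in CNTNAP2-203 OE replicates 1, 2 and 3. Control replicate 1 and CNTNAP2-203 OE replicates 1 and 3 were high and the other 3 libraries low, so the highest control was 4.90 times the lowest. The log2 fold change of 0.26 (SE 0.776) ran from -0.12 without control replicate 2 to 1.21 without control replicate 1. KREMEN2 was at 24.8, 23.4 and 23.5 CPM in the controls and at 21.1, 19.9 and 31.4 CPM in CNTNAP2-203 OE. CNTNAP2-203 OE replicate 3 was the highest of all and the other 2 overexpressing libraries were the lowest. The log2 fold change of 0.02 (SE 0.181) became -0.22 without that library. KREMEN1 (ENSG00000183762) lies at chr22:29073078-29168333 on the plus strand. KREMEN2 (ENSG00000131650), at chr16:2963944-2968383 on the plus strand, overlaps the 3′ end of PKMYT1 on the minus strand, a kinase gene with 958 to 1272 counts, and reads of the shared part cannot be assigned by strand.

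CTNNB1, which encodes β-catenin, was at 130, 141 and 140.2 CPM in the controls and at 160, 176 and 139 CPM in CNTNAP2-203 OE. CNTNAP2-203 OE replicate 3 fell among the controls and the other 2 lay above them. The log2 fold change was 0.20 (SE 0.111), and it stayed between 0.12 and 0.29 when any 1 library was left out. CTNNB1 (ENSG00000168036) lies at chr3:41194741-41260096 on the plus strand. AXIN2, the feedback target, had 0 counts in every library. For each library a count of 0 allows a level of up to 3 counts, which is 0.0707 to 0.0814 per 1e6 counts, by counting error alone. Such a count says nothing about a difference between the groups. AXIN2 (ENSG00000168646) lies at chr17:65528563-65561647 on the minus strand and overlaps AC004805.1 on the same strand, which also had 0 counts. How reads of the overlap were counted is not stated in the labels. Of the nearest protein-coding genes in the annotation on either side, looked up after these counts were seen, RGS9 had 116 to 184 counts and CEP112 had 13 to 49.

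**Figure D2:**
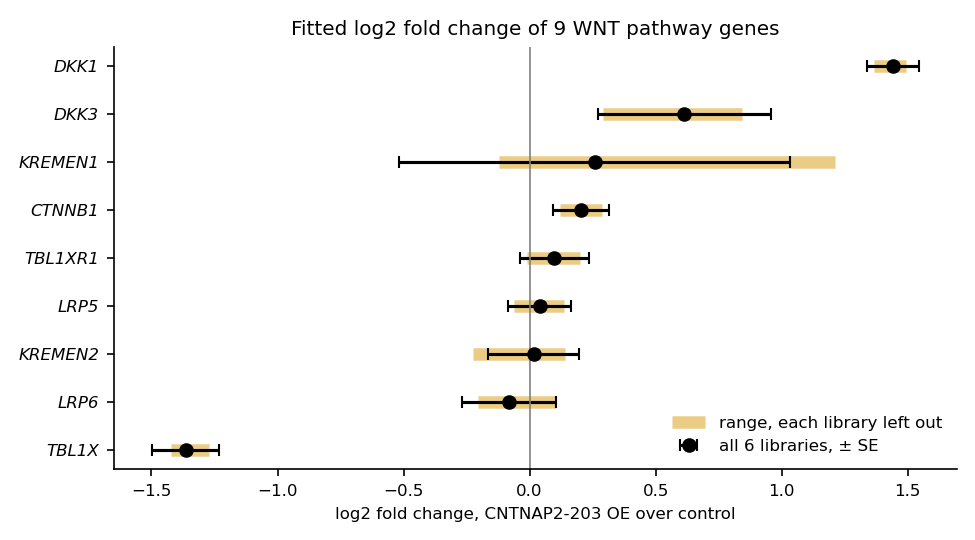
Fitted log2 fold change of CNTNAP2-203 OE over control (x axis) for the 9 genes with counts; points and error bars give the value ± SE from all 6 libraries, and bands give the range when each library is left out in turn. DKK1 stays between 1.36 and 1.49 and TBL1X between -1.42 and -1.27, while the band of KREMEN1 runs from -0.12 to 1.21.

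Of the 10 genes, 9 passed the filter on low counts and AXIN2 did not. With edgeR's quasi-likelihood test and Benjamini-Hochberg adjustment over 18786 genes, 1 of the 9 was called higher (DKK1) and 1 lower (TBL1X) at an adjusted p under 0.05. Over all tested genes 0.798% were called higher and 0.596% lower. DKK1 and DKK3 had all 3 CNTNAP2-203 OE libraries above all controls, as did 13.7% of the tested genes, and TBL1X had them below, as did 12.8%. In either direction this held for 3 of the 9, and for 26.5% of all tested genes. Since earlier results of this contrast chose the genes, nothing is read from these counts. The median log2 fold change of the 9 genes was 0.10, beside 0.00 over all tested genes.

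In the order of levels per transcript length, DKK1 moved from the third place in the controls to the first in CNTNAP2-203 OE. In the controls TBL1XR1 was the highest at 15.3 ± 1.67 FPKM (SD, n = 3, as for each FPKM value here), followed by LRP5 at 14.1 ± 0.836 and DKK1 at 13.04 ± 0.277. The ranges of TBL1XR1 and LRP5 overlapped, and that of DKK1 lay just below both. CTNNB1 followed at 9.66 ± 0.468 FPKM, clear of DKK1 above it and of KREMEN2 at 8.42 ± 0.280 below it. From KREMEN2 down through DKK3 (8.20 ± 3.57), KREMEN1 (2.67 ± 2.26), LRP6 (2.40 ± 0.221) and TBL1X (2.23 ± 0.0279 FPKM), each range overlapped the next. In CNTNAP2-203 OE, DKK1 was the highest at 34.4 ± 1.99 FPKM, with no overlap with TBL1XR1 at 15.9 ± 2.35. From TBL1XR1 down through LRP5 (14.1 ± 2.46), DKK3 (12.2 ± 0.482), CTNNB1 (10.8 ± 1.62) and KREMEN2 (8.22 ± 1.86 FPKM), each range overlapped the next. KREMEN1 and LRP6 overlapped each other at 3.07 ± 1.66 and 2.21 ± 0.605 FPKM, and TBL1X lay below them at 0.845 ± 0.131 FPKM.

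**Figure D3:**
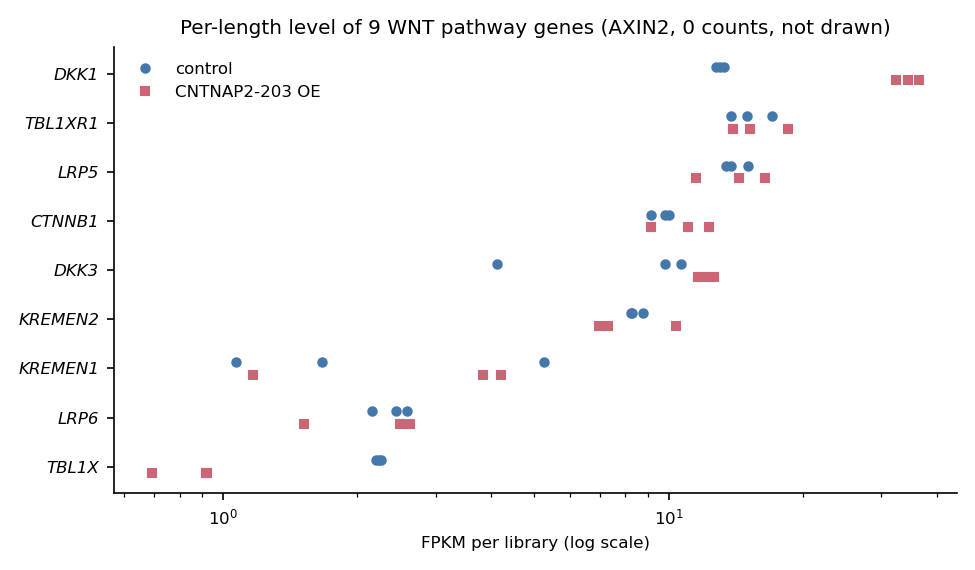
FPKM per library (x axis, log scale) of 9 WNT pathway genes, with controls as circles and CNTNAP2-203 OE as squares, ordered by mean. The 3 CNTNAP2-203 OE points of DKK1 (32.4 to 36.4 FPKM) lie above every other point, and those of TBL1X (0.694 to 0.923 FPKM) below every other point.

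The rest of the pathway was followed in 8 lists of 157 other genes, of which 121 were tested. In edgeR's quasi-likelihood test 1 of the 121 rose and 2 fell at an adjusted p under 0.05, beside 1.39% of all tested genes. At an unadjusted p under 0.05 there were 31, beside 17.2% of all tested genes. These shares over all tested genes are the reference for the counts of each list below. The median log2 fold change over the lists was -0.07. In the lists with no call by edgeR, other than that of planar polarity, DESeq2 and limma made none either. Whether libraries came from separate cultures is not stated in the labels. The p-values therefore reflect the variation among these 6 libraries alone, part of which may be technical.

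Among the 19 WNT ligand genes, 8 had a mean of at least 1 FPKM and 12 were tested. WNT7A rose, at 14.3, 13.6 and 12.5 CPM in the controls and 20.2, 21.4 and 22.1 CPM in CNTNAP2-203 OE. The groups did not overlap (log2 fold change 0.66, SE 0.118, edgeR adjusted p = 0.0457). The call was lost with upper-quartile scaling (adjusted p = 0.0520), with limma-trend on the deposited log2 values (0.0604), with the replicate number as a block (0.160) and without any 1 library except CNTNAP2-203 OE replicate 3 (0.103 to 0.232). The most abundant ligand genes were WNT10A at a mean of 16.8 FPKM and WNT7B at 11.1 FPKM, with log2 fold changes of -0.09 (SE 0.108) and 0.19 (SE 0.112) that did not pass.

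The machinery of WNT secretion was present, while most other secreted antagonists and agonists were barely counted. WLS, the carrier of WNT proteins to the cell surface, had a mean of 14.6 FPKM, and PORCN, the enzyme that attaches their lipid, 7.56 FPKM. The log2 fold changes of WLS (-0.07, SE 0.0870) and PORCN (-0.24, SE 0.102) did not pass. The DKK1 relatives DKK2, DKK4 and DKKL1 had 2, 0 and 4 counts over the 6 libraries, and the antagonist genes WIF1, SFRP4 and SOST had 0, 0 and 2. SFRP1, which encodes a secreted Frizzled-related antagonist, had 0 counts in each control and 12, 15 and 5 in CNTNAP2-203 OE replicates 1, 2 and 3. Its groups did not overlap, but it did not pass the filter on low counts and was not tested. SFRP1 is named after its values were seen. Only 4 of the 23 genes in this list had enough counts to be tested, and none was called. At an unadjusted p under 0.05 there was 1.

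None of the 22 tested receptor genes was called by edgeR, and 4 had an unadjusted p under 0.05. CKAP4, which encodes a further membrane receptor of DKK1, was the most abundant at a mean of 66.3 FPKM. It was at 267 ± 17.7 CPM in control and 330.4 ± 22.3 CPM in CNTNAP2-203 OE (SD, n = 3 each; log2 fold change 0.31, SE 0.0995, edgeR adjusted p = 0.178). FZD6, the most abundant Frizzled gene at a mean of 26.0 FPKM, had a log2 fold change of -0.30 (SE 0.120, edgeR adjusted p = 0.2496). For CKAP4 all CNTNAP2-203 OE libraries lay above all controls and for FZD6 below them, but neither difference passed.

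The genes of the destruction complex and its cytoplasmic relay had mostly small negative values. All 25 were tested, 21 had a negative log2 fold change and 4 a positive one, with a median of -0.23 beside 0.00 over all tested genes. None was called by edgeR and 5 had an unadjusted p under 0.05. For 10 of the 25 all CNTNAP2-203 OE libraries lay below all controls and for 0 above them, beside 12.8% and 13.7% of all tested genes. This list was not tested as a set either. The most abundant were CSNK1G2 and CSNK1E, both genes of casein kinase 1, at 21.2 and 18.5 FPKM, with log2 fold changes of 0.06 (SE 0.0941) and -0.35 (SE 0.171). For CSNK1E, CNTNAP2-203 OE replicate 3 was lowest at 90.9 CPM, and the other 5 libraries were between 138 and 168 CPM.

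Of the 22 tested nuclear partners of β-catenin none was called by edgeR, 6 had an unadjusted p under 0.05, and 11 were positive and 11 negative. The ATPase gene RUVBL2 and AES, which encodes a short Groucho-type corepressor, were the most abundant at 42.7 and 34.2 FPKM, with log2 fold changes of 0.31 (SE 0.128) and -0.05 (SE 0.121). LEF1 was near the limit of counting at a mean of 0.0337 FPKM (log2 fold change 1.97, SE 0.755, edgeR adjusted p = 0.237). It is named here after its values were seen.

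Among the 5 genes for partners of TBL1X in the NCOR1 complex and for Kaiso (ZBTB33), CORO2A fell. CORO2A, a coronin-family subunit of that complex, was at 195, 195 and 201 CPM in the controls and at 135, 132 and 110 CPM in CNTNAP2-203 OE. The groups lay well apart (log2 fold change -0.65, SE 0.107, edgeR adjusted p = 0.0390). The call was lost with limma-trend (0.0561), with the replicate block (0.1247) and without any 1 library except CNTNAP2-203 OE replicate 3 (0.0834 to 0.188). GPS2, another subunit gene and the next most abundant by FPKM, was at 46.1 ± 3.26 against 49.6 ± 4.81 CPM in control and CNTNAP2-203 OE (SD, n = 3 each), and did not pass. The corepressor gene NCOR1 had a log2 fold change of -0.34 (SE 0.153), ZBTB33 -0.28 (SE 0.128) and the deacetylase gene HDAC3 -0.12, none of which passed. All CNTNAP2-203 OE libraries lay below all controls for 3 of the 5 genes (CORO2A, NCOR1 and ZBTB33), beside 12.8% of all tested genes. For GPS2 and HDAC3 the groups overlapped. The list was not tested as a set.

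Of 20 tested WNT-responsive genes 1 was called, and it fell. At an unadjusted p under 0.05 there were 9, beside 17.2% of all tested genes, and 12 of the 20 had a positive and 8 a negative log2 fold change. All CNTNAP2-203 OE libraries lay above all controls for 6 of the 20 and below them for 4, beside 13.7% and 12.8% of all tested genes. The list was made with earlier results known, and it was not tested as a set. VEGFA, the angiogenic factor, whose fall was known when the list was made, was at 572 ± 18.8 CPM in control and 313 ± 29.96 CPM in CNTNAP2-203 OE (SD, n = 3 each; log2 fold change -0.87, SE 0.103, edgeR adjusted p = 0.0160). The call was lost with the replicate block (0.0657) and without any 1 library except CNTNAP2-203 OE replicate 3 (0.0502 to 0.0985). BIRC5, an inhibitor of apoptosis, just missed the threshold (log2 fold change 0.61, SE 0.114, edgeR adjusted p = 0.0501), and MMP7, a matrix metalloproteinase gene, was farther from it (1.01, SE 0.228, edgeR adjusted p = 0.0821). DESeq2 called both higher, as did edgeR without a filter on low counts. With the stricter filter, or without CNTNAP2-203 OE replicate 3, edgeR called BIRC5 higher and not MMP7. CCND1 and CD44, the most abundant at 43.5 and 41.7 FPKM, had log2 fold changes of 0.09 (SE 0.0924) and -0.08 (SE 0.140). Of other genes often used as readouts of the pathway, LGR5 had 3 and NOTUM 4 counts over the 6 libraries. SP5 was near the limit of counting, at a mean of 0.0797 FPKM, with 0.123 CPM in control and 0.323 CPM in CNTNAP2-203 OE. All CNTNAP2-203 OE libraries lay above all controls for SP5 (log2 fold change 1.37, SE 0.485, edgeR adjusted p = 0.209). NKD1 was at a mean of 0.0580 FPKM, with all of them below (-0.67, SE 0.270, edgeR adjusted p = 0.259). Neither passed. The receptor ligases RNF43 and ZNRF3, which are feedback targets too, were at 4.07 and 1.29 FPKM. Their log2 fold changes were -0.40 (SE 0.148, edgeR adjusted p = 0.224) and 0.06 (SE 0.141), and neither passed. For RNF43 all CNTNAP2-203 OE libraries lay below all controls, and for ZNRF3 the groups overlapped. BIRC5, MMP7, LGR5, NOTUM, SP5, NKD1, RNF43 and ZNRF3 were chosen after their values were seen. In the planar polarity branch none of 11 tested genes was called by edgeR and 3 had an unadjusted p under 0.05. DESeq2 called PRICKLE1 higher and CELSR2 and VANGL2 lower, and limma called none. Its most abundant genes, CELSR1 and SCRIB, had log2 fold changes of -0.37 (SE 0.165) and 0.00 (SE 0.0911).

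**Figure D4:**
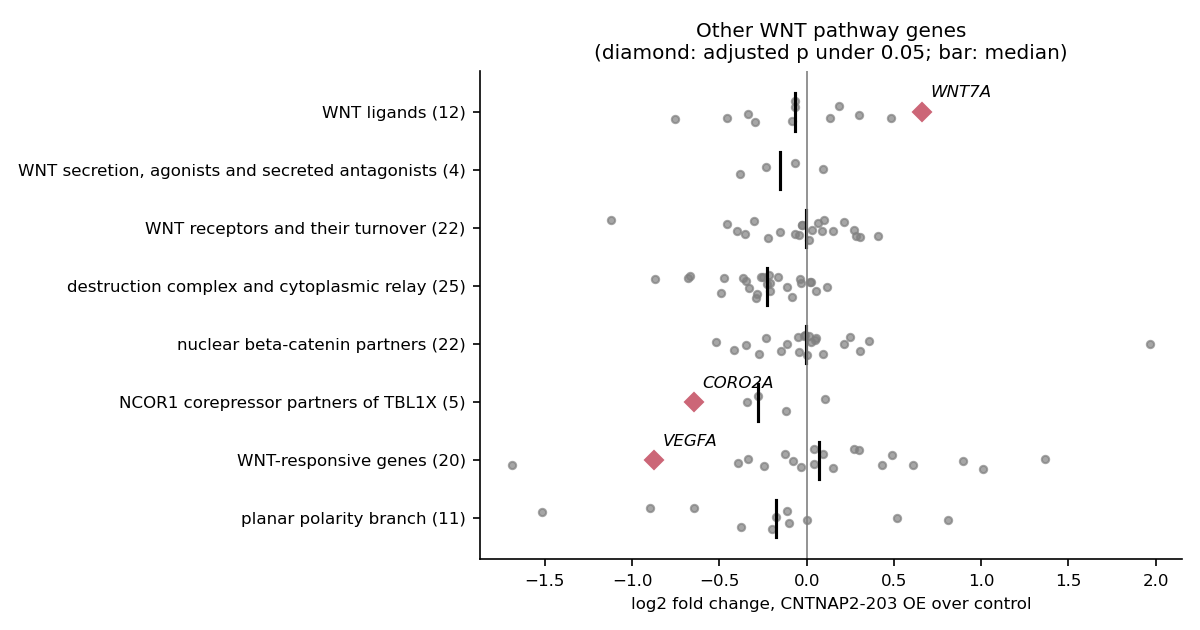
Log2 fold change of CNTNAP2-203 OE over control (x axis) of 121 tested genes in 8 WNT lists, with the number tested in brackets; diamonds are the 3 genes at an adjusted p under 0.05, grey points the others and bars the medians. WNT7A lies at 0.66, CORO2A at -0.65 and VEGFA at -0.87, and the median of the destruction complex list is -0.23.

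Of the 6 tested genes next to DKK1 on chromosome 10, 3 on each side, 5 had a log2 fold change above 0. In the test 1 of the 6 passed, beside 1.39% of all tested genes. LINC01468, a noncoding gene whose span begins 137 kb away, was at 2.76 ± 0.685 against 4.99 ± 0.212 CPM in control and CNTNAP2-203 OE (SD, n = 3 each; log2 fold change 0.86, SE 0.218, edgeR adjusted p = 0.108). PRKG1-AS1 and CSTF2T on the other side had 0.43 (SE 0.243) and 0.16 (SE 0.0960), and PRKG1, at under 1 CPM, had 0.73 (SE 0.534). None of these passed. Farther off, ZWINT, a kinetochore gene 4043 kb away, rose by 0.81 (SE 0.118, edgeR adjusted p = 0.0269), and IPMK, 5877 kb away, had -0.27 (SE 0.128). The tested genes next to TBL1X on the X chromosome were STS, PNPLA4 and an antisense gene without a symbol on one side and SHROOM2, WWC3 and CLCN4 on the other. Their log2 fold changes ran from -0.31 for WWC3 to 0.51 for SHROOM2 and none passed. TBL1X, at -1.36, lay outside that range. Since DKK1 and TBL1X were picked for their large changes, their lying beyond their neighbours is no finding.

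**Figure D5:**
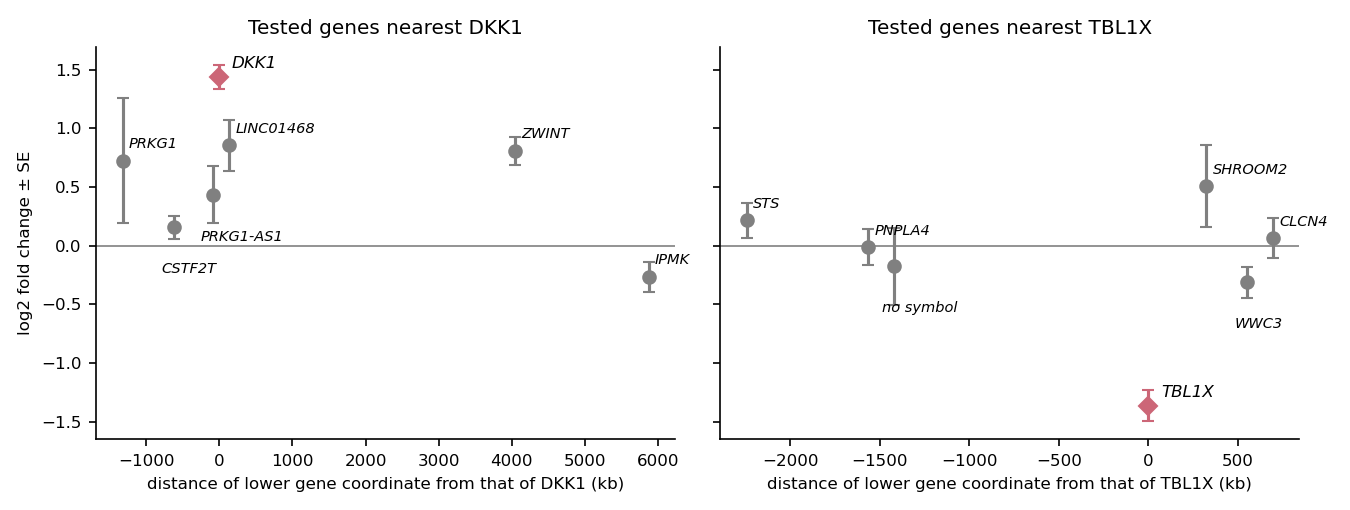
Log2 fold change ± SE (y axis) of the 3 tested genes on each side of DKK1 and of TBL1X (grey circles) and of these genes themselves (diamonds), against the distance of their lower coordinates in kb. DKK1 at 1.44 lies above its neighbours (-0.27 to 0.86) and TBL1X at -1.36 below its own (-0.31 to 0.51). Both were picked for their large changes, so this is no finding.

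The genes most like DKK1 across the 6 libraries, by the Euclidean distance of log2 CPM centred on each gene's mean among 12487 genes, were ARHGDIB (distance 0.226), CCL2 (0.2497), GINS2 (0.254) and DNER (0.326). CCL2 encodes a chemokine, GINS2 a subunit of the replicative helicase and DNER a transmembrane protein with EGF-like repeats. Their log2 fold changes were 1.199 to 1.41. Those most like TBL1X were UNC5B (0.148), a netrin receptor gene, COL21A1 (0.254), a collagen gene, CFAP69 (0.264), a gene of the sperm flagellum, and ABCG1 (0.387), a cholesterol exporter gene. UNC5B was at 163, 169 and 175 CPM in the controls and at 77.6, 73.9 and 55.4 CPM in CNTNAP2-203 OE. Like TBL1X, it was lowest in CNTNAP2-203 OE replicate 3. These genes were selected for sharing the difference between the groups, which is therefore no finding.

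For KREMEN1 and DKK3, the same measure was applied after their values were seen. The genes closest to KREMEN1 were TREX2 (distance 0.881), an exonuclease gene, and GRPEL2 (0.940), a mitochondrial co-chaperone gene. GRPEL2 was at 39.9, 10.9 and 8.57 CPM in control replicates 1, 2 and 3 and at 41.7, 7.02 and 36.1 CPM in CNTNAP2-203 OE replicates 1, 2 and 3. The same 3 libraries were high for GRPEL2 as for KREMEN1. Closest to DKK3 were BDKRB2 (0.249), a bradykinin receptor gene, and PTBP2 (0.296), a splicing factor gene. BDKRB2 was at 10.4 CPM in control replicate 1 and between 28.2 and 33.5 CPM in the other 5 libraries. GRPEL2 and BDKRB2 were selected for sharing these profiles, so the likeness is no finding.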

How the data were processed

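RNA of 6 CAL27 libraries was depleted of ribosomal RNA and sequenced with the TruSeq RNA v2 kit, per the labels' protocols. Trim Galore 0.4.4 and the build hg38 come from the submitters' processing notes. The sources used here give no aligner, counter, annotation, strand setting or treatment of reads shared by genes. The authors deposited raw counts for 60564 genes and log2 values. From their relation to the counts, the log2 values deposited by the authors are log2(FPKM + 1): the implied gene length varied between libraries by a median of 0.230% with an offset of 1 and 2.61% with none. FPKM is 2 to the power of the value, minus 1.

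Counts were tested with edgeR 4.0.16 (R 4.3.3): filterByExpr (minimum count 10) kept 18786 genes, TMM factors were 0.951 to 1.02, and the robust quasi-likelihood test had group as its only term, with Benjamini-Hochberg adjustment over all tested genes at 0.05. The SE of a log2 fold change is its absolute value over the root of F. limma 3.58.1 and DESeq2 1.42.0 were alternatives, as were 2 other scalings, 2 other filters, a replicate block, a prior count of 2, and leaving out each library. The edgeR script was tested on simulated data. Coordinates are from GENCODE 29 and upstream sequences from RefSeq (GRCh38.p14). Genes and lists were chosen with earlier results of these data known, and 1 gene of a list is not reported here. From each list the text names the called genes (at most 6) and the 2 with the highest mean FPKM; for DKK1 and TBL1X it names the 4 nearest genes by profile (average log2 CPM of at least 1, no clone-style symbol) and the 3 nearest tested genes on each side. Others are said to be chosen later, except those given by counts or values as relatives of the genes described.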

Additional observations from a re-analysis of the deposited data

How the results depend on the processing

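DKK1, DKK3, CTNNB1 and TBL1X kept their sign in all 15 alternatives. Only signs and sizes are compared for these genes, and whether the calls on DKK1 and TBL1X held is not given. On the log2(FPKM + 1) scale, where low genes are compressed, DKK1 was at 1.33 and TBL1X at -0.81. KREMEN2 kept its sign in 10, KREMEN1 and LRP5 in 13, and LRP6 and TBL1XR1 in 14 of 15. Over all genes, 150 were called higher and 112 lower. DESeq2's Wald test gave 637 and 426, and limma-trend gave 84 higher. Leaving out 1 library gave 8 to 310 higher and 6 to 235 lower, with the upper values without CNTNAP2-203 OE replicate 3. Of the WNT lists, 1 gene was called higher and 2 lower. Called higher were 0 with upper-quartile scaling, 3 without a filter, 2 with the stricter filter (CPM of at least 1 in 3 libraries), 4 by DESeq2 and 0 by limma-trend; called lower were 4 by DESeq2 and 1 by limma-trend. With 1 library left out these were 0 to 2 and 0 to 2, at 0 in every such fit but that without CNTNAP2-203 OE replicate 3. The cause was not tested.

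With the replicate number as a block, 11 genes were called higher and 6 lower, and 0 and 0 of the WNT lists. Same-numbered libraries had deviations from their group mean correlated at -0.0689, 0.0461 and -0.0247. Of 3 CNTNAP2-203 OE libraries, 1 correlated best with the control of its number. With 3 libraries per group, these values cannot tell whether same-numbered libraries were handled together.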
